A study of Mus musculus with 12 samples.

Results

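Afp, Gpc3, Prom1, Cd24a, Bex1, Sprr1a, Cpe, Duoxa1, Wnk4 and Tinag are 10 genes of 18193 measured in this series, chosen by symbol as oncofetal genes or genes of other tissues that stood out in some of these livers. They are read by 17 of the 45037 probe sets tested, 5 for Afp, 3 for Cd24a, 2 for Cpe and 1 for each of the other 7 genes. Their levels in the arrays labelled WT 6 months led to their choice, so differences from those arrays are given as a description and support nothing.

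The series holds liver RNA of 12 male mice of the 129J background, 1 Affymetrix array per mouse and 3 mice per group. By label, KO 24 months tumor is hepatocellular tumor tissue of IQGAP2 knockout mice, WT 24 months is normal liver of wild-type mice of the same age, and KO 6 months and WT 6 months are normal livers of younger mice of both genotypes. All mice had a regular diet, the labels name no agent, and the sources used here do not say which exons of Iqgap2 were deleted. Values are log2 intensities after robust multi-array averaging (RMA) by the authors, and array medians lay between 5.41 and 5.45.

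Iqgap2, the gene deleted in the KO mice and a scaffold protein of the cytoskeleton, went against the labels. On its brightest probe set it read 12.15, 12.05 and 12.15 in the arrays labelled KO 24 months tumor, 12.28, 12.30 and 11.92 in WT 24 months, 8.12, 8.68 and 8.07 in KO 6 months and 8.38, 8.24 and 8.33 in WT 6 months. Iqgap2 was thus high in the arrays labelled KO 24 months tumor and low in those labelled WT 6 months, with no overlap, and its second probe set lay at 8.55 to 9.01 in the groups labelled 24 months and 7.32 to 7.79 in those labelled 6 months. The groups are therefore named by their deposited labels throughout, and directions drawn from the labels KO 24 months tumor or WT 6 months rest on them. Alb, the main secreted protein of hepatocytes, lay between 15.03 and 15.19 in all 12 arrays.

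Oncofetal genes are active in embryonic tissue, fall silent after birth and can return in tumors. Alpha-fetoprotein, the product of Afp, is the main serum protein of the fetal liver and a marker of hepatocellular carcinoma. Glypican 3, a heparan sulfate proteoglycan of the cell surface, is used in the same way in human pathology. Other genes described here belong to unrelated tissues: Sprr1a to cornifying skin, Cpe to endocrine cells, Wnk4 and Tinag to the kidney tubule.

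Promoter sequences are shown for the members whose window held one of the motifs searched, as a view of the DNA in front of genes that were high in the same arrays. RefSeq windows of 250 bases before the annotated start (build GRCm38.p6) were matched for 8 of the 10 genes in 9 windows, 2 of them for Prom1, and Cd24a and Cpe were not matched. In Afp, capitals mark GTTAAT, a part of a site for the liver factor HNF1 and the only form of it searched. A TATA box is marked by TATAAA in Afp and Sprr1a. In Prom1 the marked site for AP-1, a factor of growth and stress responses, is TGACTCA. Sprr1a has it as TGAGTCA, its reading on the other strand. The windows lie at chr5:90490464-90490713 on the plus strand, chr5:44101737-44101986 on the minus strand and chr3:92485882-92486131 on the minus strand, each printed in the direction of transcription.
Afp: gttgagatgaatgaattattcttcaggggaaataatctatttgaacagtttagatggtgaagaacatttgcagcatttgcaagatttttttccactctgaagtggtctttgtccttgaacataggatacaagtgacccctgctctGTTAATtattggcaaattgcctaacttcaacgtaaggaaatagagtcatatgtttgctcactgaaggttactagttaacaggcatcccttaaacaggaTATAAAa
Prom1: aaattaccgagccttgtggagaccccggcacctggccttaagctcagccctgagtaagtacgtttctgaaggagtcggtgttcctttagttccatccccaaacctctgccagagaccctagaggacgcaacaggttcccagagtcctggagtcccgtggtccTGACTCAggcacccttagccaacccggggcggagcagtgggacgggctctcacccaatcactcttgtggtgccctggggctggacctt
Sprr1a: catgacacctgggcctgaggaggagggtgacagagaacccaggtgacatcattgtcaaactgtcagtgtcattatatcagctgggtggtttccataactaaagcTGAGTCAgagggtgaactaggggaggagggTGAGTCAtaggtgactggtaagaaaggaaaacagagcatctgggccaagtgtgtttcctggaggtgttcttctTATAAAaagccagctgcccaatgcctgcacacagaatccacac
The HNF1 letters of Afp begin 105 bases before the annotated start and its TATA box 7 bases before it. Sprr1a holds AP-1 sites beginning 146 and 116 bases before its start and a TATA box beginning 43 bases before it, and the AP-1 site of Prom1 begins 88 bases before its start. Each motif was searched on both strands. The AP-1 letters stood in 2 of the 9 member windows and in 4.46% of 32851 RefSeq windows of the same length, the HNF1 letters in 1 of 9 and 6.43%, and the TATA box in 2 of 9 and 12.4%. Neither CTTTGAA nor CTTTGAT, the core letters bound by the TCF/LEF factors of Wnt signaling, stood in any of the 9 windows, against 7.48% of all windows. These matches are letters in a window and say nothing of binding.

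Of the 10 genes, 7 were higher in each of the 3 arrays labelled WT 6 months than in any of the other 9 arrays, on their brightest probe set. They were Afp, Prom1, Sprr1a, Cpe, Duoxa1, Wnk4 and Tinag. The lowest array labelled WT 6 months exceeded the highest of the others by 0.99 (Prom1) to 4.42 (Afp) on the log2 scale. In bulk liver, a larger share of cells that carry a transcript cannot be told apart from more transcript per cell.

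**Figure D1:**
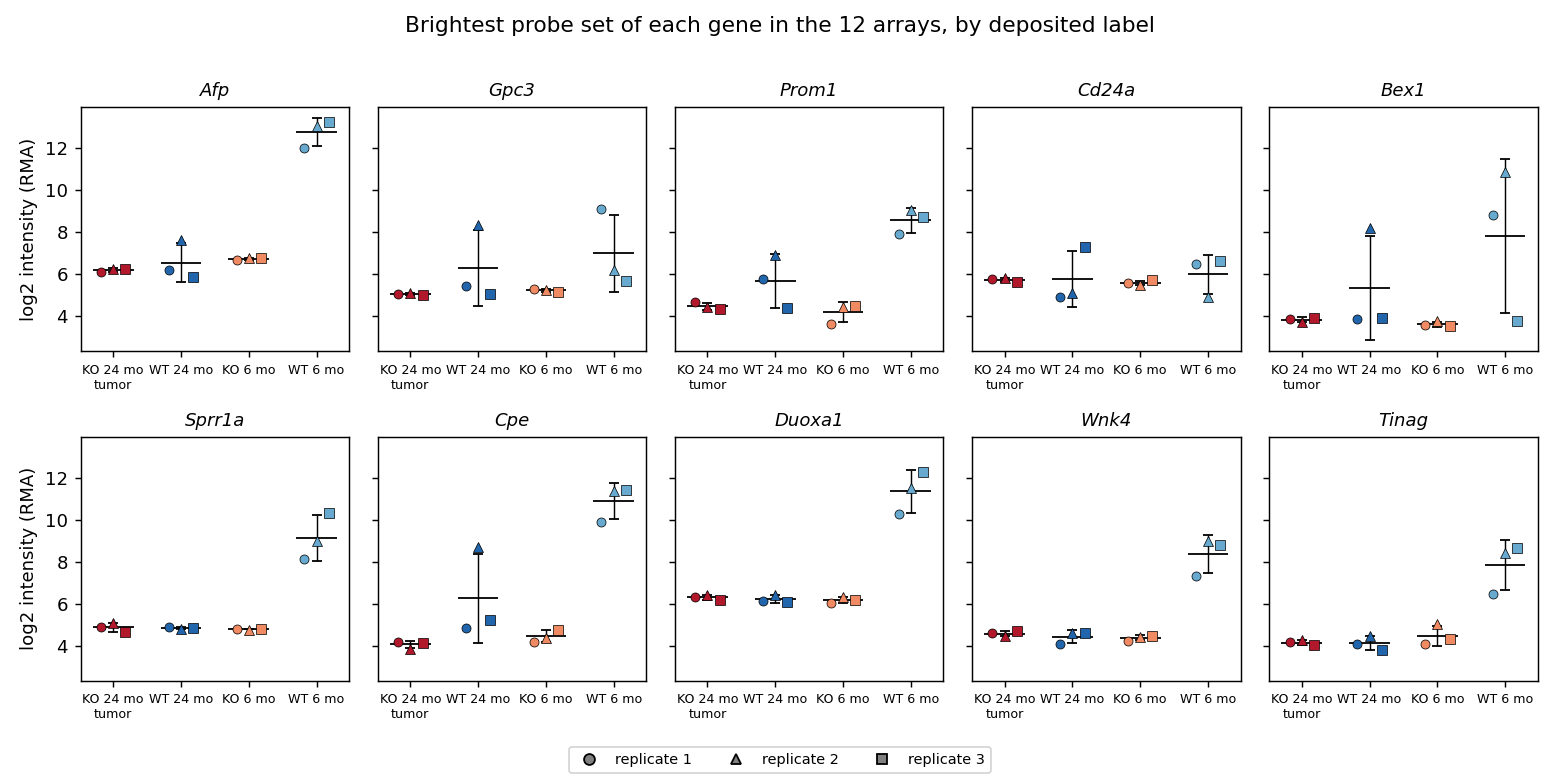
Log2 intensity (vertical axis) of the brightest probe set of each of the 10 genes in each array (horizontal axis, deposited labels), with symbols for replicates, lines for group means and bars for SD (n = 3). In 7 panels the 3 arrays labelled WT 6 months lie above the 9 others, while Gpc3, Cd24a and Bex1 are split within groups.

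Afp had the widest gap between the arrays labelled WT 6 months and the rest. Its probe set 1416646_at read 6.11, 6.25 and 6.27 in the arrays labelled KO 24 months tumor, 6.20, 7.62 and 5.85 in WT 24 months, 6.68, 6.76 and 6.79 in KO 6 months and 12.04, 13.05 and 13.27 in WT 6 months. Only the array labelled WT 24 months replicate 2 stood clear of the others outside WT 6 months. A second probe set, 1416645_a_at, read 4.65, 4.31 and 4.91 in the arrays labelled KO 24 months tumor, 5.50, 7.55 and 5.37 in WT 24 months, 5.24, 5.31 and 5.21 in KO 6 months and 11.96, 13.17 and 13.12 in WT 6 months. It had replicate 2 of WT 24 months at the same place, and the third, 1436879_x_at, gave 3.36, 2.82 and 3.49 in the arrays labelled KO 24 months tumor, 3.71, 4.65 and 3.71 in WT 24 months, 3.60, 3.88 and 3.71 in KO 6 months and 9.65, 10.78 and 10.79 in WT 6 months. The remaining probe sets did not follow. Probe set 1436880_at ranged over 4.23 to 4.96 and 1436881_x_at over 3.73 to 4.91 in all 12 arrays, so 3 of 5 Afp probe sets carried the pattern.

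**Figure D2:**
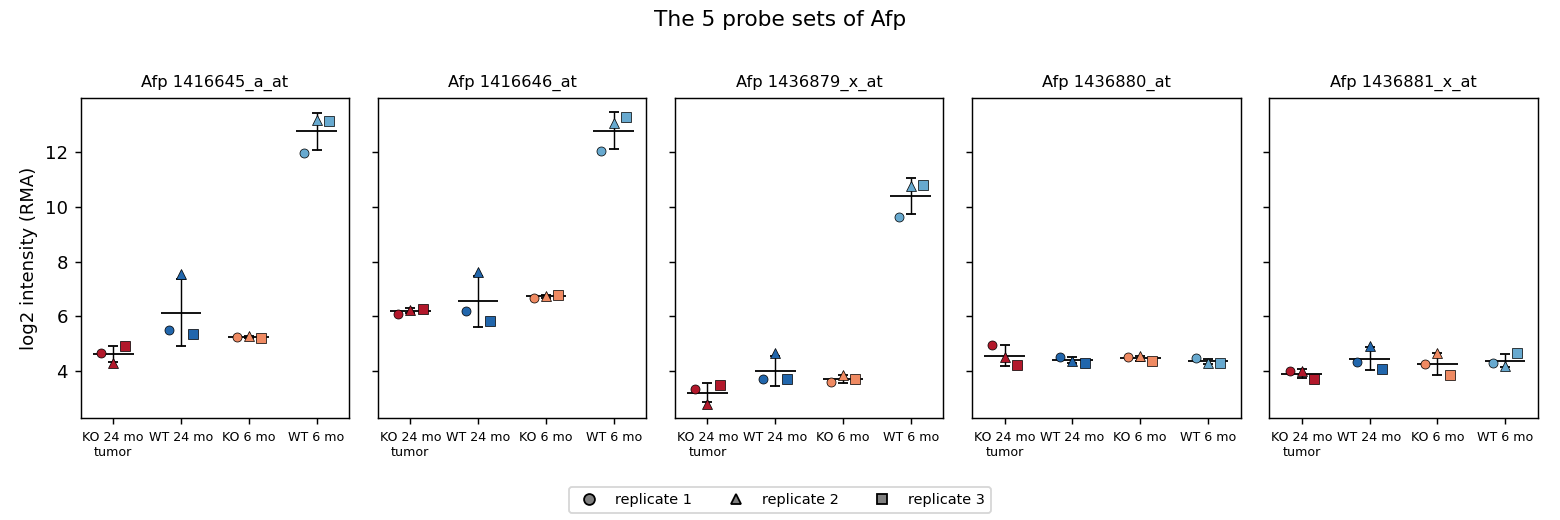
Log2 intensity (vertical axis) of the 5 probe sets of Afp in each array (horizontal axis, deposited labels), with group means and SD (n = 3). Probe sets 1436880_at and 1436881_x_at stay between 3.73 and 4.96 in every array, while the other 3 are high in the arrays labelled WT 6 months.

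The measured relatives and known regulators of Afp did not meet the call. Of the albumin family, Alb and Afm (afamin) were measured, and neither differed by a fold of 3 at an adjusted p of 0.05 or less in any of the 4 comparisons. Zhx2, a repressor of Afp after birth, averaged 7.53 ± 0.07 in KO 24 months tumor, 7.75 ± 0.37 in WT 24 months, 7.49 ± 0.08 in KO 6 months and 7.73 ± 0.19 in WT 6 months (SD, n = 3 each). Zbtb20, another repressor, averaged 10.66 ± 0.38 in KO 24 months tumor, 10.26 ± 0.21 in WT 24 months, 10.63 ± 0.31 in KO 6 months and 10.84 ± 0.26 in WT 6 months. None of 9 measured Afp regulators passed the fold and adjusted p in any comparison. By the adjusted p alone, without the fold, Cebpa was higher in KO 6 months (difference 1.07) and WT 24 months (0.75) than in WT 6 months. Foxa1 was lower in both (-0.94 and -0.91), and Cebpb was higher in WT 24 months only (0.64). Lpl (lipoprotein lipase), which Zhx2 also represses in mouse liver, read 8.43, 8.51 and 8.32 in the arrays labelled KO 24 months tumor, 8.49, 9.85 and 11.01 in WT 24 months, 8.07, 10.88 and 10.29 in KO 6 months and 13.03, 12.74 and 11.68 in WT 6 months, and was highest in the arrays labelled WT 6 months too.

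Prom1 encodes prominin 1 (CD133), a membrane glycoprotein that marks progenitor cells in several epithelia. It read 4.66, 4.42 and 4.34 in the arrays labelled KO 24 months tumor, 5.76, 6.93 and 4.38 in WT 24 months, 3.63, 4.42 and 4.51 in KO 6 months and 7.93, 9.08 and 8.72 in WT 6 months. Outside WT 6 months, replicates 2 and 1 of WT 24 months were the highest arrays. Its relative Prom2, with the CD24 receptors Siglecg and Selp, gave 0 of 3 calls in each comparison.

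Duoxa1 encodes the maturation factor that lets the dual oxidase DUOX1 leave the endoplasmic reticulum and make hydrogen peroxide at the cell surface. It read 6.33, 6.41 and 6.19 in the arrays labelled KO 24 months tumor, 6.13, 6.43 and 6.11 in WT 24 months, 6.02, 6.32 and 6.17 in KO 6 months and 10.28, 11.52 and 12.30 in WT 6 months, with the 9 arrays outside WT 6 months inside a range of 6.02 to 6.43. Duox1, its partner enzyme, read 4.15 to 4.74 in those 9 arrays, against 6.86, 7.91 and 9.06 in the arrays labelled WT 6 months. In both genes replicate 1 was the lowest and replicate 3 the highest of the arrays labelled WT 6 months. Duoxa2, the matching factor of DUOX2, lay within 3.94 to 4.50 in all 12, and Duox1 was the 1 of 3 measured relatives that met the fold and adjusted p, lower in both KO 6 months and WT 24 months than in WT 6 months by label.

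Sprr1a encodes a small proline-rich precursor of the cornified envelope of skin. It read 4.90, 5.09 and 4.66 in the arrays labelled KO 24 months tumor, 4.89, 4.79 and 4.87 in WT 24 months, 4.82, 4.78 and 4.81 in KO 6 months and 8.16, 8.98 and 10.33 in WT 6 months. The 9 arrays outside WT 6 months spanned 4.66 to 5.09, and their groups overlapped. None of 10 other small proline-rich and cornified envelope genes was called in any comparison, and the 8 squamous epithelium markers, keratins among them, were called 0 times.

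Wnk4 encodes a kinase that controls sodium chloride transport in the distal nephron, and Tinag a basement membrane glycoprotein of kidney tubules. Wnk4 read 4.62, 4.45 and 4.68 in the arrays labelled KO 24 months tumor, 4.08, 4.62 and 4.59 in WT 24 months, 4.24, 4.43 and 4.46 in KO 6 months and 7.34, 9.0 and 8.80 in WT 6 months. Tinag read 4.17, 4.26 and 4.04 in the arrays labelled KO 24 months tumor, 4.08, 4.47 and 3.82 in WT 24 months, 4.09, 5.02 and 4.33 in KO 6 months and 6.47, 8.44 and 8.65 in WT 6 months. In both, replicate 1 was the lowest of the arrays labelled WT 6 months and every other group lay at or below 5.02. Tinagl1, the relative of Tinag, ran the other way, with 8.04 to 8.62 in the other 9 arrays and 6.96, 6.34 and 6.38 in the arrays labelled WT 6 months. The WNK pathway, including the other WNK kinases, their target kinases Oxsr1 and Stk39 and the cotransporters Slc12a2 and Slc12a3, gave 0 of 8 calls in each comparison. Kidney tubule markers gave 0 of 9, with summed intensities of 284 to 369 in the other 9 arrays and 299 to 329 in the arrays labelled WT 6 months. Pax8, a transcription factor of kidney and thyroid, read 3.98 to 4.41 in the other 9 arrays and 6.92, 6.79 and 4.37 in those labelled WT 6 months, where replicate 3 was as low as the 9. The other 3 thyroid markers were not called.

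Cpe encodes carboxypeptidase E, which trims basic residues from prohormone intermediates. It read 4.16, 3.87 and 4.16 in the arrays labelled KO 24 months tumor, 4.86, 8.71 and 5.23 in WT 24 months, 4.20, 4.38 and 4.76 in KO 6 months and 9.91, 11.39 and 11.44 in WT 6 months. Replicate 2 of WT 24 months stood between the remaining arrays of its group and those labelled WT 6 months. The second Cpe probe set, 1439437_x_at, stayed within 4.0 to 5.29 in all arrays and did not follow. Other prohormone processing genes gave 0 of 9 calls and neuroendocrine markers 0 of 7 in each comparison. Without a call, Cpm read 8.0, 7.51 and 7.32 in WT 6 months and 8.63 in replicate 2 of WT 24 months, against 6.0 to 7.12 in the remaining arrays. Cpd read 9.40, 8.41 and 7.83 in WT 6 months and overlapped the other arrays, at 7.42 to 8.70.

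The remaining genes, Gpc3, Bex1 and Cd24a, did not follow the label WT 6 months as a group. Gpc3 read 5.05, 5.10 and 5.01 in the arrays labelled KO 24 months tumor, 5.45, 8.37 and 5.07 in WT 24 months, 5.31, 5.26 and 5.16 in KO 6 months and 9.11, 6.19 and 5.69 in WT 6 months. Its 2 high arrays carried different labels, replicate 1 of WT 6 months and replicate 2 of WT 24 months, and the 5 other glypicans were called 0 times. Bex1, a small adapter protein of the brain encoded on the X chromosome, read 3.89, 3.70 and 3.91 in the arrays labelled KO 24 months tumor, 3.88, 8.19 and 3.93 in WT 24 months, 3.58, 3.76 and 3.54 in KO 6 months and 8.83, 10.89 and 3.75 in WT 6 months. Replicates 1 and 2 of WT 6 months and replicate 2 of WT 24 months were high, while replicate 3 of WT 6 months was as low as the rest. Of its family 4 further genes were measured, with 0 calls in each comparison.

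**Figure D3:**
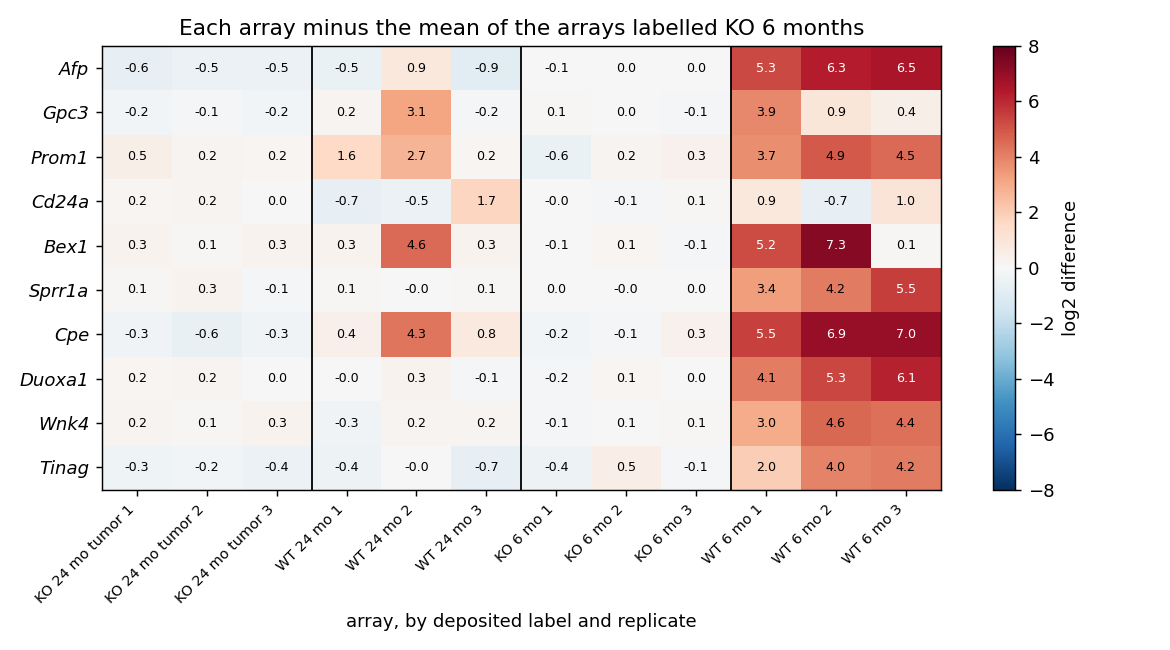
Each array (columns, by deposited label and replicate) minus the mean of the 3 arrays labelled KO 6 months, on the log2 scale (color and number in each cell), for the brightest probe set of the 10 genes (rows). Replicate 2 of WT 24 months carries Bex1, Cpe, Gpc3, Prom1 and Afp, and replicate 3 of WT 24 months carries Cd24a.

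Replicate 2 of WT 24 months was the highest array of its group for 8 of the 10 genes, and for 5 of them, Afp, Gpc3, Prom1, Bex1 and Cpe, by at least 1 on the log2 scale. Across all genes, 20 of 18193 (0.11%) were at least 4-fold higher there than in both other arrays of the group, and 3 of these 20 were Bex1 (ranked 1, 4.25 above the next array), Cpe (ranked 4) and Gpc3 (ranked 6). Among the others were Cyp3a16, Sult1e1, Sult3a1 and Sult2a2, enzymes of steroid and drug metabolism. In replicate 1 of WT 6 months 16 genes met the same rule, Gpc3 among them together with Sult2a2 and Sult3a1. In replicate 2 of WT 6 months 14 genes did, 1 of them Bex1, and in each of the arrays labelled KO 24 months tumor none did.

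Cd24a encodes a small glycosylated surface protein of B cell precursors, granulocytes and epithelial progenitors. It read 5.76, 5.83 and 5.64 in the arrays labelled KO 24 months tumor, 4.92, 5.12 and 7.30 in WT 24 months, 5.58, 5.51 and 5.71 in KO 6 months and 6.47, 4.94 and 6.62 in WT 6 months. The highest array was replicate 3 of WT 24 months, above all arrays labelled WT 6 months, and probe sets 1448182_a_at and 1437502_x_at had their highest values in the same array, at 7.20 and 5.37. In that array 207 of 18193 genes (1.14%) were at least 4-fold above both other arrays of the group. Its 5 Kupffer cell markers summed to an intensity of 24172, against 1161 to 3563 in the other 11 arrays, and its 7 leukocyte markers to 4692. The next highest leukocyte sum, 2725, belonged to replicate 1 of WT 6 months, where Cd24a read 6.47, but replicate 3 of WT 6 months, with Cd24a at 6.62, had a leukocyte sum of 671. Ptprc, the pan-leukocyte marker CD45, read 7.13, 7.55 and 10.72 in WT 24 months. Cd3g, Itgam, S100a8 and S100a9 were also highest in replicate 3 of that group. The other leukocyte markers did not rise alike, as Cd79a read 5.54, 5.32 and 5.32 in WT 24 months and Cd3e 6.56, 6.38 and 6.71. Clec4f was the 1 of 5 Kupffer cell markers called in any comparison, higher in WT 24 months than in WT 6 months, and leukocyte markers gave 0 of 7 calls. The part of these cells in the level of Cd24a was not tested.

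**Figure D4:**
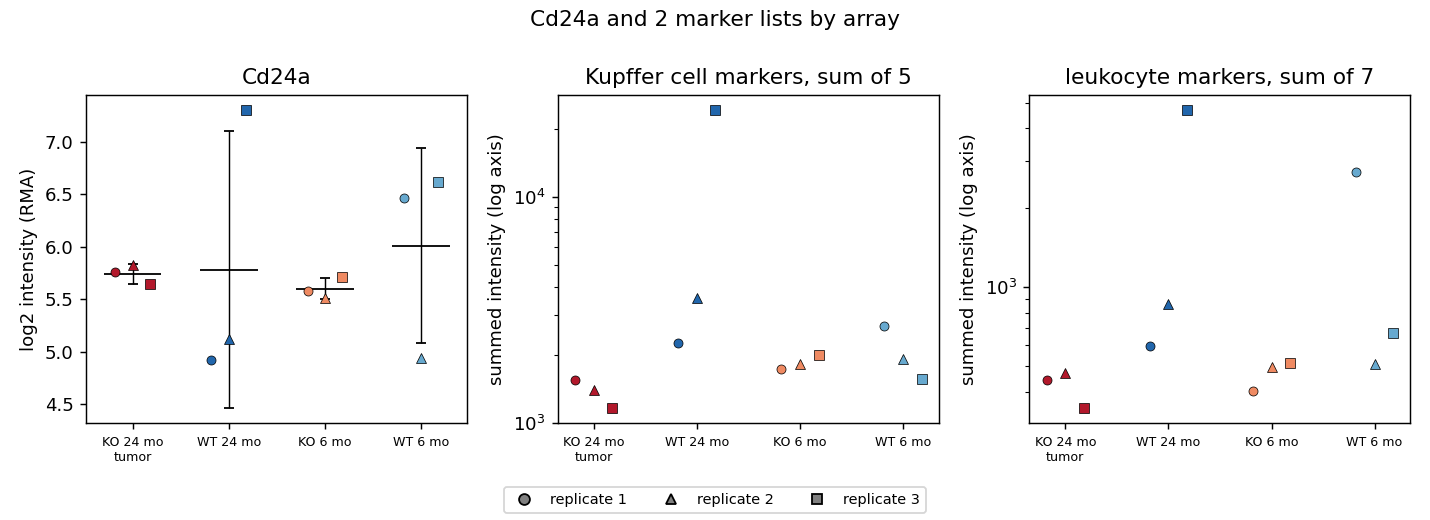
Log2 intensity of Cd24a (left) and summed intensity of 5 Kupffer cell markers (middle) and 7 leukocyte markers (right, both on log axes) in the 12 arrays by deposited label. Replicate 3 of WT 24 months is the highest array in all 3 panels.

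The comparisons of the arrays labelled KO 24 months tumor with those labelled WT 24 months (genotype and tumor together at 24 months) and KO 6 months (age and tumor together in KO mice) did not choose the genes, although they share arrays with comparisons that did. Differences were tested with limma over all 45037 probe sets and called where the fold reached 3 and the adjusted p was 0.05 or less. With KO 24 months tumor over WT 24 months, 0 of 17 member probe sets were called higher (0.0155% of all probe sets) and 0 lower (0.0444%). With KO 24 months tumor over KO 6 months, 0 of 17 were called higher (0.0111%) and 0 lower (0.00222%). In fits of only the 2 groups compared these counts were also 0. With no adjustment, a limma p under 0.05 was reached by 5 of 17 member probe sets in the first comparison, all of them lower, against 15.3% of all probe sets in either direction. In the second it was reached by 0 of 17, against 6.11% in either direction. Those of the first were Afp 1416645_a_at, 1436879_x_at and 1436881_x_at, Prom1 and Cpe 1415949_at. Probe sets of the same gene are not independent, and 1436881_x_at did not carry the pattern of Afp.

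The 24-month comparison was widest for the genes that replicate 2 of WT 24 months carried. Cpe differed by -2.21 on the log2 scale between KO 24 months tumor and WT 24 months (95% interval -3.95 to -0.47, limma adjusted p = 0.233), Prom1 -1.21 (-2.35 to -0.08, limma adjusted p = 0.297) and Afp -0.35 (-1.22 to 0.53, limma adjusted p = 0.718). Without that replicate the differences were -0.99 for Cpe, -0.59 for Prom1 and 0.18 for Afp. Gpc3 differed by -1.25 (-3.19 to 0.69) and Bex1 by -1.50 (-4.81 to 1.81), and without the same replicate by -0.21 and -0.07. The probe sets of Afp disagreed here. The second, 1416645_a_at, differed by -1.52 (-2.60 to -0.44, limma adjusted p = 0.201) and by -0.81 without that replicate, and the third, 1436879_x_at, by -0.80 (-1.52 to -0.08, limma adjusted p = 0.281) and by -0.49 without it, so only 1416646_at of these 3 changed sign. For Cd24a the difference was -0.04 (-1.26 to 1.19), or 0.72 without replicate 3 of WT 24 months. Sprr1a, Duoxa1, Wnk4 and Tinag differed by 0.03, 0.09, 0.16 and 0.03, with 95% intervals that reached no further than -0.98 and 1.05.

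Between KO 24 months tumor and KO 6 months the 10 differences ran between -0.53 (Afp, -1.41 to 0.34) and 0.29 (Prom1, -0.85 to 1.42). The widest interval was that of Bex1, -3.11 to 3.52, and reflects the pooled spread rather than these groups. The SD of Bex1 was 0.11 in KO 24 months tumor and 0.12 in KO 6 months, but 2.47 in WT 24 months and 3.67 in WT 6 months. The median of the 10 genes was -0.19 in the first comparison and 0.11 in the second, beside 0.05 and 0.00 for all probe sets. Groups did not overlap for 0 of 17 member probe sets higher (13.0% of all probe sets) and 4 of 17 lower (6.77%) in the first. In the second they were 0 of 17 higher (7.28%) and 5 of 17 lower (7.36%), of Afp, Cpe and Gpc3. Those of the first were Cpe 1415949_at and Afp 1416645_a_at, 1436879_x_at and 1436881_x_at. The brightest Afp probe set overlapped there (6.11 to 6.27 against 5.85 to 7.62), and several probe sets of 1 gene are not independent. With 3 arrays in a group, an exact permutation test cannot give a two-sided p below 0.1.

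**Figure D5:**
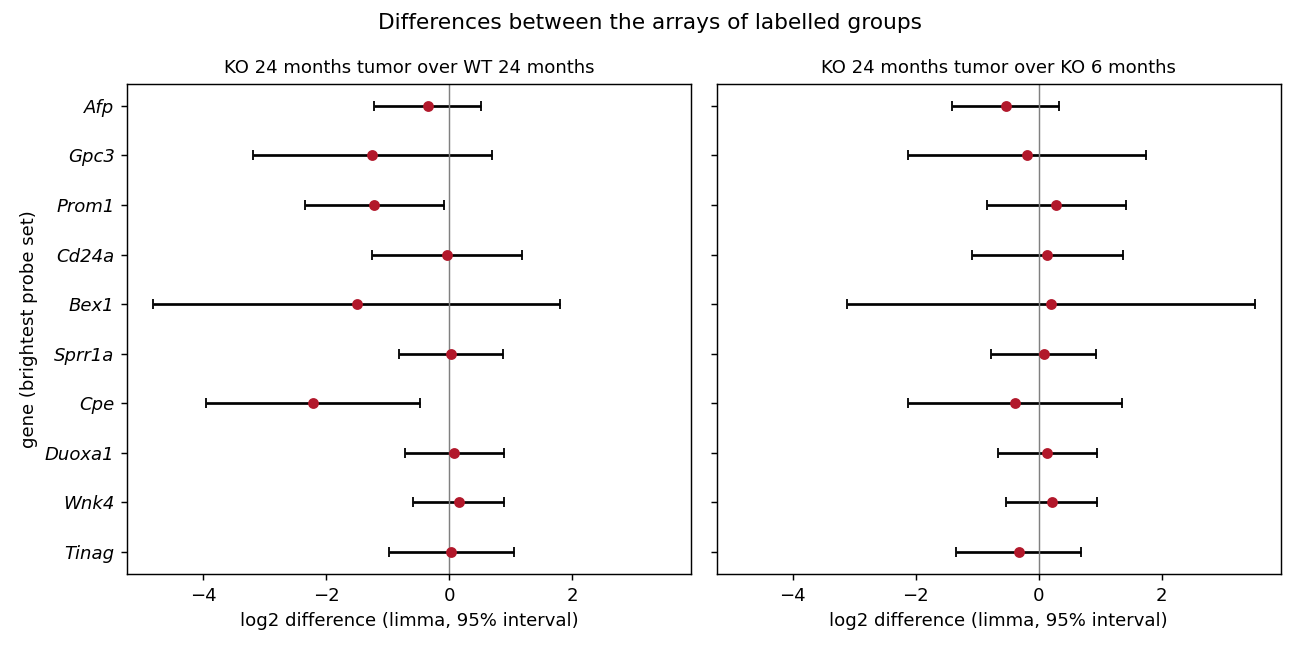
Log2 difference of the arrays labelled KO 24 months tumor minus those labelled WT 24 months (left) and KO 6 months (right) for the brightest probe set of the 10 genes (vertical axis), with the 95% interval of limma. No difference passed the adjusted p, and Bex1, Gpc3 and Cpe have the widest intervals.

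For the comparisons with the arrays labelled WT 6 months, which chose the genes, the counts follow from that choice and nothing is read from them. With KO 6 months over WT 6 months, 9 of 17 member probe sets of 7 genes met the fold and adjusted p in the lower direction (1.03% of all probe sets) and 0 in the higher (0.759%). The same 7 genes, again with 9 probe sets, met it with WT 24 months over WT 6 months (lower 0.884%, higher 0.762%). With a fit of only these 2 groups, Prom1 and Cpe no longer met the adjusted p, at unchanged differences of -2.89 and -4.64. In WT 24 months over WT 6 months the 3 Afp probe sets that carried the pattern, 1416646_at, 1416645_a_at and 1436879_x_at, differed by -6.23, -6.61 and -6.38 on the log2 scale, and in KO 6 months over WT 6 months by -6.04, -7.50 and -6.68. Cpe differed by -6.47 in KO 6 months over WT 6 months. The median of the 10 genes was -4.28 and -3.84 in these comparisons. Where the arrays of KO 24 months tumor and WT 6 months swapped labels, 9 member probe sets were higher in KO 24 months tumor than in both WT 24 months and KO 6 months, and 0 were lower in KO 6 months or WT 24 months than in WT 6 months.

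Other genes named as liver tumor markers were listed alongside, and 14 of 16 were measured. Of these, 9 were called lower in KO 6 months than in WT 6 months (1.03% of all probe sets) and 7 lower in WT 24 months than in WT 6 months (0.884%). In KO 24 months tumor 1 was called lower than in WT 24 months (0.0444%), and 0 were called against KO 6 months. The list was made with earlier results of these data known, so its counts against WT 6 months support nothing. Golm1 went the other way, averaging 6.89 in WT 24 months and 5.82 in WT 6 months, short of the fold. Spink1, Mdk, Igdcc4 and Tff3 were not called in any comparison. Scd2, a stearoyl-CoA desaturase, read 5.48, 5.27 and 5.48 in the arrays labelled KO 24 months tumor, 6.02, 8.49 and 6.87 in WT 24 months, 6.38, 6.38 and 6.21 in KO 6 months and 11.03, 12.30 and 11.78 in WT 6 months. Birc5 (survivin), an inhibitor of apoptosis made in dividing cells, read 4.07 to 4.90 in the other 9 arrays and 7.0, 6.88 and 6.50 in those labelled WT 6 months. Ect2, an exchange factor of cytokinesis, read 3.64 to 4.74 in the other 9 and 6.05, 6.56 and 6.07 in those labelled WT 6 months. Lcn2 (lipocalin 2), a secreted protein of the acute phase, was the one called in KO 24 months tumor, at 6.42, 6.20 and 6.66 against 10.71, 11.48 and 13.59 in WT 24 months (difference -5.50, SE 0.60, limma adjusted p = 0.00591). It was as low in KO 6 months, at 6.11, 5.36 and 5.90, and read 12.57, 13.39 and 11.80 in WT 6 months. The low level was thus not particular to the arrays labelled KO 24 months tumor.

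Markers of other cells moved with the arrays labelled WT 6 months in several lists. The 5 sinusoidal endothelium markers had summed intensities of 1648 to 3059 in the other 9 arrays, against 676 to 1031 in WT 6 months, and the 5 stellate cell markers of 1153 to 1914 in the other 9, against 353 to 690 in WT 6 months. In each list 1 of 5 was called higher in both KO 6 months and WT 24 months than in WT 6 months, Clec4g and Reln. Reln was the brightest stellate cell marker in every array and weighs most in that sum. Des and Pdgfrb also had their lowest group means in WT 6 months (6.52 and 6.10), but Col1a1 had its highest (5.72). Lrat averaged 4.12 there and 4.16 in KO 24 months tumor. The 9 hepatocyte markers had sums of 222991 to 242105 in the other 9 arrays against 184729 to 203223 in WT 6 months, and of them Cps1, the first enzyme of the urea cycle, was called, at 14.11 to 14.43 against 11.49, 12.45 and 10.10 in WT 6 months. Tat, Fgb and Serpina1b also had their lowest group means there (12.64, 14.06 and 14.61). The list was not uniform, since Apoa1 had its highest there (15.13) and Hnf4a averaged 12.77, beside 12.76 in KO 6 months. Ttr and Apoa2 averaged 14.97 and 15.02 there, beside 14.99 and 15.05 in KO 24 months tumor. The 5 cholangiocyte and progenitor markers were called 0 times, with sums of 184 to 238 in the other 9 arrays and 200 to 387 in WT 6 months. Krt19, the bile duct keratin, read 5.22 to 6.0 in the other 9 arrays and 5.30, 6.52 and 7.91 in those labelled WT 6 months, where replicate 1 was the lowest as in Afp. This list was not uniform. In WT 6 months Krt7 and Sox9 had their lowest group means (4.29 and 5.19), and Epcam had its highest (6.47). Neuroendocrine sums were 233 to 278 in the other 9 and 224 to 262 in WT 6 months, and squamous sums 248 to 315 in the other 9 and 264 to 278 in WT 6 months. Erythroid sums of 4 markers were 1523 to 2011 in both labelled KO groups and 366 to 1016 in both labelled WT groups, with 0 of 4 called. Alas2, the brightest of them, read 10.42 to 10.82 in the KO groups and 7.48 to 9.82 in the WT groups. Klf1, Ermap and Hba-a1 overlapped between the labelled genotypes, so the split of the sums was that of Alas2. The part of any of these in the levels of the 10 genes was not tested.

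The genes most like each member were found by Pearson's r over the 12 arrays, among the brightest probe sets of 18193 genes, and are a description of shared arrays. Duoxa1 was closest to Sprr1a (r = 0.995), and Sprr1a to Sbspon (0.997), Npdc1 (0.996) and Duox1 (0.996). Wnk4 was closest to Tmem178 (0.996) and then Duoxa1 (0.991), and Tinag to Elovl7 (0.988). Afp was closest to Adamtsl4 (0.991), Car2 (0.991) and Maoa (0.990), Prom1 to Dntt (0.973), Cpe (0.972) and Nqo1 (0.962), and Cpe to Abcc4 (0.986) and Scd2 (0.983). The lower values belonged to the array-dependent genes, Gpc3 with Sult2a2 (0.966), Cd24a with Trpv2 (0.949) and Bex1 with Cdkn1a (0.937). Within the arrays labelled WT 6 months, replicate 1 was the lowest for 7 of the 10 genes, those with all 3 arrays above the others.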

How the data were processed

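Total RNA of 12 livers was hybridized to Affymetrix mouse genome arrays. The authors made the deposited log2 intensity values by RMA with simpleaffy in R, which corrects background, equalizes quantiles and summarizes probe sets; the version and the genome build are not given in the sources used here. The table holds no detection calls, so a low value cannot be placed against background.

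Of 45101 probe sets 64 controls were left out. Genes came from GEO's platform annotation, which can be old: 34945 tested probe sets name 1 gene, 932 several and 9160 none listed, giving 18193 genes, each represented by the probe set with the highest mean. Groups follow the labels. limma 3.58.1 in R 4.3.3 fitted 4 group means, with Benjamini-Hochberg adjustment over 45037 probe sets, and called a fold of 3 or more at an adjusted p of 0.05 or less, the thresholds stated for the SAM program, which was not used here. The script was tested on simulated data. Members, gene lists, tests and alternatives were chosen with earlier results of these data known. Named genes are the members, Iqgap2, up to 4 called genes of each list or any the text needs, and the 3 genes most like each member. Each mouse has 1 array, so the number of arrays limits the precision. Figures used matplotlib.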

Additional observations from a re-analysis of the deposited data

How the results depend on the processing

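Where the arrays of KO 24 months tumor and WT 6 months swapped labels, the member probe sets higher in KO 24 months tumor numbered 9 against WT 24 months and 9 against KO 6 months, both 0 as deposited, and those lower in KO 6 months and in WT 24 months than in WT 6 months numbered 0 and 0, both 9 as deposited. Among differences that passed the call on either side of the swap, those that changed sign were Afp (6.23, 6.04, 0.53 and 0.35 for KO 24 months tumor over WT 24 months, KO 24 months tumor over KO 6 months, KO 6 months over WT 6 months and WT 24 months over WT 6 months), Cpe (4.64, 6.47, 0.38 and 2.21 in the same order), Prom1 (2.89 for KO 24 months tumor over WT 24 months and 1.21 for WT 24 months over WT 6 months) and Tinag (3.37 for KO 24 months tumor over KO 6 months and 0.33 for KO 6 months over WT 6 months). Differences called on neither side also turned, for Gpc3 (0.70, 1.76, 0.19 and 1.25 in the order given for Afp), Bex1 (2.49 and 1.5 for KO 24 months tumor over WT 24 months and WT 24 months over WT 6 months) and Cd24a (0.23 and 0.04 for the same comparisons). The exchange itself makes these changes. Without dim probe sets (mean under 6 log2) the lower counts against WT 6 months were 4 and 4, since 4 of 17 member probe sets passed that filter. Of these 4, 2 (of Afp and Cpe) passed it only with the arrays labelled WT 6 months in the mean, so this setting says nothing of stability. With each array left out in turn these counts were 9 to 10, and all others 0 to 0. Bex1 joined the call in both comparisons without WT 6 months replicate 3 (-6.23 and -4.53) and, for KO 6 months over WT 6 months, with arrays centred on housekeeping genes (-4.29). With only the 2 groups compared, Prom1 and Cpe lost the call in WT 24 months over WT 6 months at unchanged differences. The replicate block gave 9 and 9 lower and 0 for the other counts, and changed no call. Over all probe sets, arrays with the same replicate number did not deviate together (correlations -0.24 to 0.19, median -0.03 over 18 pairs, against -0.17 to 0.29 over 36 other pairs). The labels name no batch, and a batch that touched only some genes was not tested. One probe set per gene, the mean of the probe sets, median centring, another fold threshold and another variance prior kept every count within 1.5 times. The small number of arrays and the unsettled labels are the main limits, and no detection calls were used.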
